A study of Canis lupus familiaris with 28 samples.

Results

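Gene expression was compared between primary oral malignant melanomas (OMMs) that metastasised (M) and OMMs that did not (NM) in purebred dogs other than Golden Retrievers. The tumours were chosen by the breed label alone, which left out Golden Retriever and Cross breed dogs and kept 13 of the 28 tumours of the series. The 8 M OMMs came from 2 Dachshunds, 3 Labrador Retrievers and 1 dog each of the Cocker Spaniel, Bullmastiff and Border Collie breeds, dogs that died or were put down because of metastasis. The 5 NM OMMs came from 2 Labrador Retrievers and 1 Great Dane, 1 Irish Terrier and 1 Bouvier des Flandres, each alive more than 540 days after surgery. Every tumour was a formalin-fixed, paraffin-embedded (FFPE) biopsy taken before adjuvant treatment, with 1 canine gene array. The study's tables list later drugs, a melanoma vaccine or radiation for some M dogs of these breeds and for no NM dog. They list surgery for every NM dog of these breeds but not for most of the M dogs. Later treatment, surgery and metastasis therefore cannot be told apart. The FFPE blocks of the NM dogs were also older for the most part, and the part of block age was not tested. Of the 8 breeds only the Labrador Retriever bore both kinds of tumour, so that outside it breed and metastasis cannot be told apart. The M OMMs were also at higher clinical stages than most NM OMMs, according to the study's tables, and stage and metastasis cannot be told apart here either.

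OMM arises from melanocytes of the oral mucosa, is often poor in pigment, and spreads to regional lymph nodes and lung. A cell that leaves such a tumour has to detach from its neighbours, cut through matrix, enter a vessel and divide again elsewhere, and each step draws on known gene groups, among them proteases, integrins, chemokines and the division machinery. A bulk biopsy also holds fibroblasts, vessels, leucocytes, mucosal epithelium and, where the tumour reaches it, tongue or jaw muscle, and in such a sample fewer cells of a type and less RNA per cell cannot be told apart.

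Values are gene-level log2 signals of 32391 Transcript clusters, the array's unit for the probes that share a transcribed locus, and a difference of 1 is a doubling of signal. Most signals were low, since the mean over the 13 tumours was under 2 at 74.6% of them. Array signals correlated with each other at r of 0.72 to 0.913. The percentage of Transcript clusters above a log2 value of 4 was 5.31% ± 0.442 in M and 5.08% ± 0.235 in NM OMMs (SD, n = 8 and 5, two-sided exact permutation p = 0.334). The first principal component held 27.8% of the variance. Scores of the 5 Labrador Retriever tumours lay between -41.1 and -18.2 whatever their status, whereas the other M OMMs lay between 6.1 (a Dachshund) and 90.9 (the Bullmastiff). The NM OMMs of other breeds scored 16.5 (Great Dane), -9.6 (Irish Terrier) and -57.2 (Bouvier des Flandres). The Bullmastiff array, at the top of the component, also had the most Transcript clusters above 4 (6.04%) and the lowest median correlation with the other arrays (0.799), while the Bouvier des Flandres, at its foot, had 4.85% and the Labrador Retrievers 4.82% to 5.35%. The study's tables give RNA and array quality by dog, which the labels tie to a tumour only where a breed occurs 1 time in its group, and the part of quality in this component and in the lists that move with it was not tested. The M and NM means differed by 40.4, within the spread of the tumours (SD 43.6 and 28.8, two-sided exact permutation p = 0.0855, where 0.00155 is the smallest p the design can give).

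**Figure D1:**
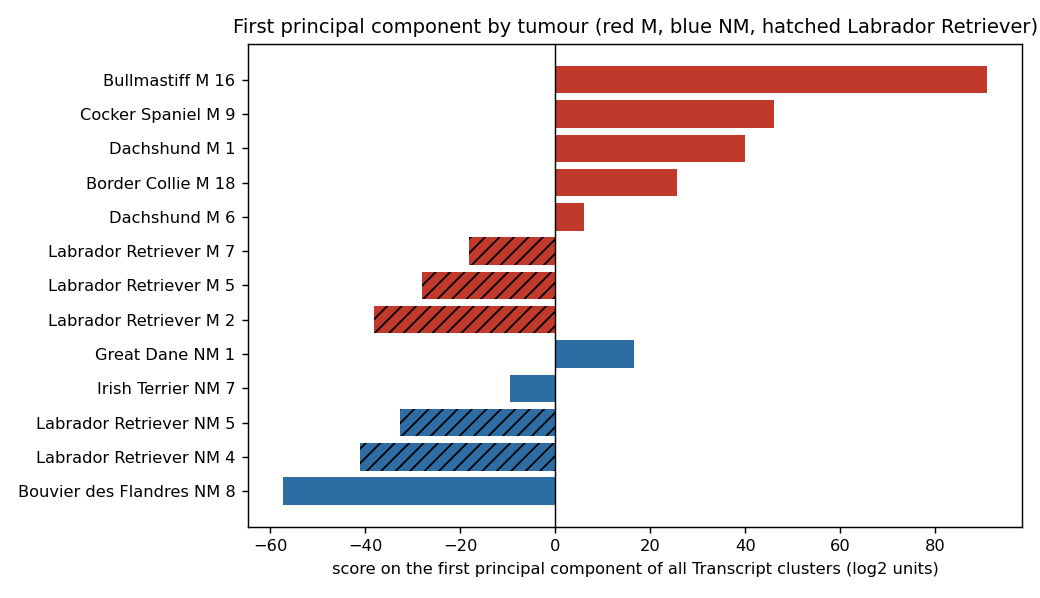
Score of each of the 13 tumours on the first principal component of the log2 values (horizontal axis), with M OMMs in red, NM OMMs in blue and Labrador Retriever tumours hatched. All 5 Labrador Retriever tumours lie below 0, and all 5 M OMMs of other breeds lie above 0, up to 90.9 in the Bullmastiff.

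Melanocyte genes varied widely among the dogs of each group. PMEL, the pigment granule fibril protein and a defining melanocyte marker, had log2 values from 1.70 to 6.74 in M OMMs (median 4.21) and of 2.33, 2.36, 2.84, 3.52 and 5.64 in NM OMMs. MLANA, another melanocyte antigen, was above 4 only in the Bullmastiff (4.14) and 1 Labrador Retriever M OMM (4.22). MLANA was under 2 in 5 M and 4 NM OMMs, so that this defining marker was near the floor of the array in most tumours of both groups.

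No Transcript cluster differed between M and NM OMMs after adjustment over all 32391 (limma, smallest adjusted p = 0.129, 0% called). At an unadjusted p under 0.05, 2581 Transcript clusters (7.97%) were reached, against 1620 that 5% of the tests would give, and 842 of them were higher in M (2.6%) and 1739 lower in M (5.37%). Over all Transcript clusters 42.6% of differences were above 0 and 57.4% below. Centring each array on its median turned the split at that p into 1085 higher and 1321 lower. The M and NM values did not overlap at 80 Transcript clusters (0.247%), of which 30 were higher (0.0926%) and 50 lower in M OMMs (0.154%). The smallest p belonged to Transcript clusters 14480057 and 14480687, which share their values and carry no gene symbol, at a mean of 1.75 (SD 0.30) in M and 2.97 (SD 0.35) in NM OMMs, and these were picked out after their values were seen. The genes below are those at the head of this unadjusted order and the members of functional lists, and each is a description of 13 tumours rather than a called change.

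CANX, ASAH1, ZFR, FNDC3B and CKAP2L were among the genes with the smallest p on the side higher in M OMMs. CANX, the calnexin chaperone of the endoplasmic reticulum, had log2 values from 4.70 to 5.62 in M OMMs (median 4.86) and of 4.01, 4.08, 4.11, 4.34 and 4.36 in NM OMMs. Every M OMM was above every NM OMM, with a difference of 0.81 (SE 0.17, limma unadjusted p = 0.000414, adjusted p = 0.559). CALR, the soluble partner of calnexin, was higher by 0.60 (SE 0.21), with overlapping groups. ASAH1, the lysosomal acid ceramidase, ran from 2.14 to 2.65 in M (median 2.42) and was 1.68, 1.98, 2.01, 2.02 and 2.08 in NM OMMs. It too separated the groups, with a difference of 0.49 (SE 0.10, unadjusted p = 0.00039).

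ZFR, a zinc finger protein that binds double-stranded RNA, ranged from 2.74 to 3.36 in M OMMs (median 3.12) and was 2.27, 2.38, 2.41, 2.48 and 2.72 in NM OMMs. FNDC3B, a membrane protein with fibronectin type III domains, ranged from 1.63 to 2.42 in M (median 2.0) and was 1.08, 1.22, 1.25, 1.53 and 1.56 in NM OMMs. CKAP2L, a mitotic spindle protein, ranged from 1.51 to 2.23 in M (median 1.84) and was 1.22, 1.39, 1.42, 1.47 and 1.48 in NM OMMs. None of these 3 genes overlapped between the groups, and their differences were 0.63 (SE 0.12), 0.67 (SE 0.14) and 0.47 (SE 0.12). For CKAP2L the gap between the groups was 1.51 against 1.48, at signals that lie low on the array.

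Some larger differences came with a wide spread among M OMMs. SECISBP2L, a relative of the factor that reads selenocysteine elements in mRNA, was 2.02, 2.20, 2.37, 2.53 and 2.56 in NM OMMs and ran from 2.39 to 6.69 in M OMMs (median 4.77). The lowest M value was that of a Labrador Retriever, the only one inside the NM range, and the difference of 2.40 (SE 0.66) is 5.28-fold. MAPKAPK2, a kinase downstream of p38 that stabilises inflammatory mRNAs, was 2.82, 3.60, 4.09, 4.31 and 4.92 in NM and 4.65 to 6.25 in M OMMs (median 5.42), a difference of 1.44 (SE 0.35). The splicing factor SF3B1 was higher by 0.86 (SE 0.21), the La protein SSB, which protects new small RNAs, by 0.83 (SE 0.23), and HNRNPH2, a splicing regulator, by 0.77 (SE 0.21). H2AZ1, a histone variant placed at promoters, was higher by 0.54 (SE 0.14).

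**Figure D2:**
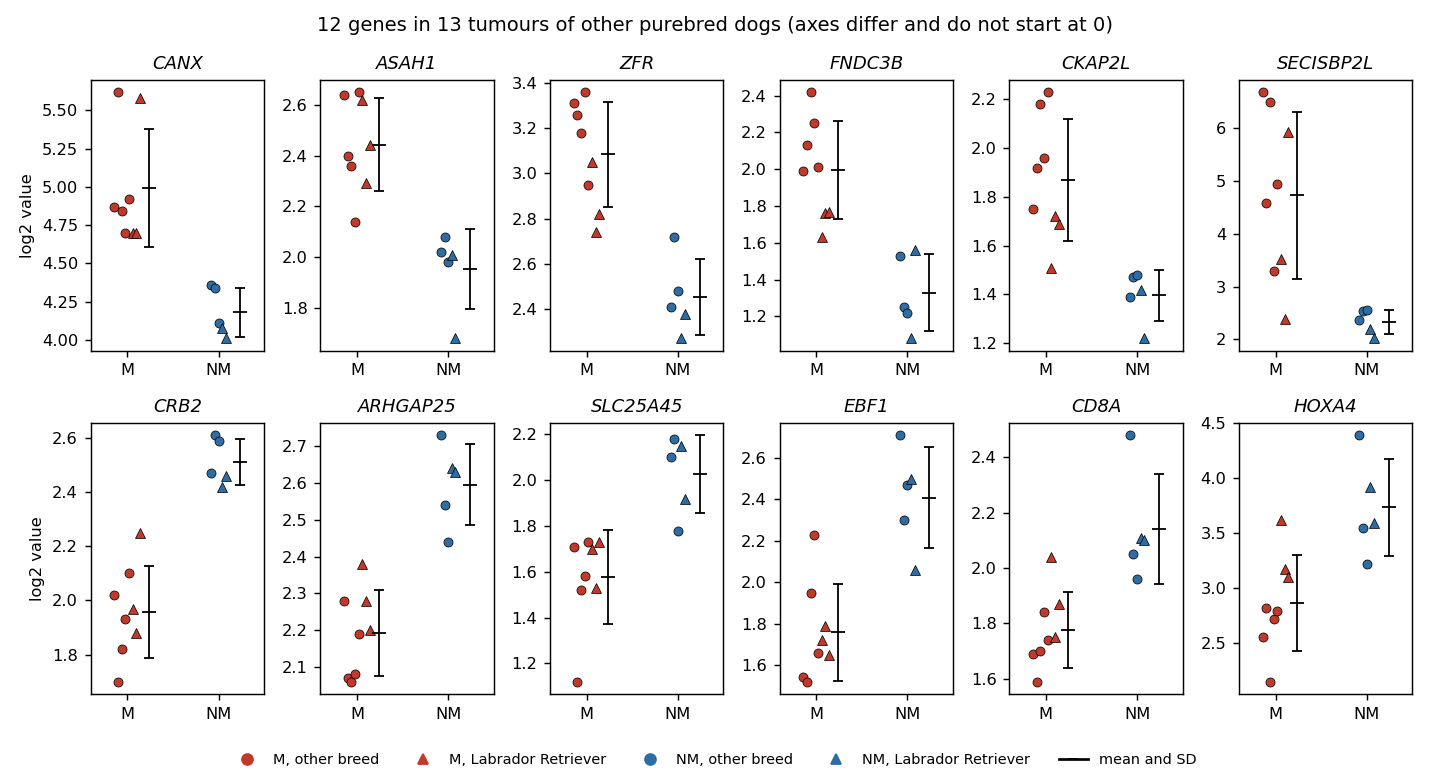
Log2 value of 12 genes in each tumour, with M OMMs in red, NM OMMs in blue, Labrador Retrievers as triangles, and the mean and SD of each group as bars. CANX, ASAH1, ZFR, FNDC3B and CKAP2L are higher, and CRB2, ARHGAP25 and SLC25A45 lower, in every M OMM than in any NM OMM, while the other 4 panels overlap.

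Genes of DNA replication and mitosis were mostly a little higher in M OMMs. Of 47 measured, 40 were higher and 7 lower, with a median difference of 0.127, beside 47.9% higher and a median of -0.00942 over 16295 genes with 1 symbol. In 11 of the 47 an unadjusted p under 0.05 was reached, all higher, where 7.95% of all such genes reached it in either direction. That count was 7 without either Labrador Retriever NM OMM and 4 without all Labrador Retrievers. It was 5 with replicate number as a block and 3 when all 28 tumours entered the fit in 6 groups. Here and below, the difference in the replicate block rests only on the 3 numbers that occur in both groups. Tumours with other numbers do not inform it. TYMS, the thymidylate synthase that makes the thymidine precursor of DNA, was 1.44, 1.73, 1.88, 3.0 and 3.57 in NM OMMs and 2.54 to 5.35 in M OMMs (median 3.86), a difference of 1.68 (SE 0.53, unadjusted p = 0.00745). TPX2, which activates the Aurora A kinase on the spindle, was 1.76 to 2.14 in M and 1.44, 1.49, 1.53, 1.55 and 1.70 in NM OMMs, without overlap. KIF23, a kinesin of the dividing cell's midzone, differed by 0.27 (SE 0.09) and MCM10, which loads at replication origins, by 0.25 (SE 0.08). The list's level, the median of its genes in a tumour, was 1.54 to 1.72 in M OMMs and 1.46, 1.47, 1.47, 1.49 and 1.56 in NM OMMs, so that 1 Dachshund M OMM lay inside the range of NM OMMs. CDK4, the G1 kinase often amplified in human mucosal melanoma, was higher by 0.84 (SE 0.29), highest in the Border Collie (4.16) and the Bullmastiff (4.03).

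Lists of protein synthesis, protein breakdown and respiration were also mostly higher, but together with the first principal component. Translation factors were higher in 30 of 31 genes (median 0.379, 6 higher at an unadjusted p under 0.05), among them EIF4A2, an RNA helicase of initiation, by 0.84 (SE 0.27), EIF2S1, a subunit of the factor that carries the first transfer RNA, by 0.86 (SE 0.34), and EIF4B, which stimulates that helicase, by 0.85 (SE 0.34). Proteasome genes were higher in 33 of 35 (median 0.337, 5 at that p), with PSMB7, a catalytic subunit, by 0.62 (SE 0.26) and PSME4, a proteasome activator, by 0.73 (SE 0.26). Genes of oxidative phosphorylation were higher in 46 of 56 (median 0.295, 3 higher and 1 lower at that p), with the complex I subunits NDUFB4 and NDUFV2 higher by 1.03 (SE 0.39) and 0.89 (SE 0.35) and ATP5F1D, an ATP synthase subunit, lower by 0.29. Cytosolic ribosomal proteins were higher in 44 of 59 (median 0.288), with 1 higher (RPL21, by 0.76) and 1 lower at that p, and their median was 0.141 without Labrador Retriever NM replicate 4 and -0.144, with 19 of 59 higher, with replicate number as a block. Heat shock and chaperonin genes were higher in 25 of 31 (median 0.261, 6 higher and 1 lower at that p). HSPH1, a chaperone of the HSP110 family, was higher by 0.35 (SE 0.09), and HSF1, the transcription factor that drives the heat shock genes, was the gene that was lower, by 0.38 (SE 0.11). The shares at that p were 19.4% for translation factors, 14.3% for the proteasome and 22.6% for heat shock genes. For oxidative phosphorylation and ribosomal proteins they were 7.14% and 3.39%, below the 7.95% of all genes with 1 symbol.

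With the first principal component as a covariate, the medians of these lists came to 0.0667 for translation factors, -0.0264 for the proteasome, -0.0482 for oxidative phosphorylation, -0.131 for ribosomal proteins and 0.0106 for heat shock genes. The replication list stood at 0.141 in that fit, with 41 of 47 genes higher. The Bullmastiff tumour had the highest level of the proteasome list (3.27, next 2.50), of oxidative phosphorylation (3.95, next 2.78) and of ribosomal proteins (6.65, next 5.87). Without it the medians were 0.209 for the proteasome, 0.133 for oxidative phosphorylation and 0.171 for ribosomal proteins. With replicate number as a block the medians of the proteasome and oxidative phosphorylation were 0.081 and -0.0366, and those of translation factors and heat shock genes 0.133 each.

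**Figure D3:**
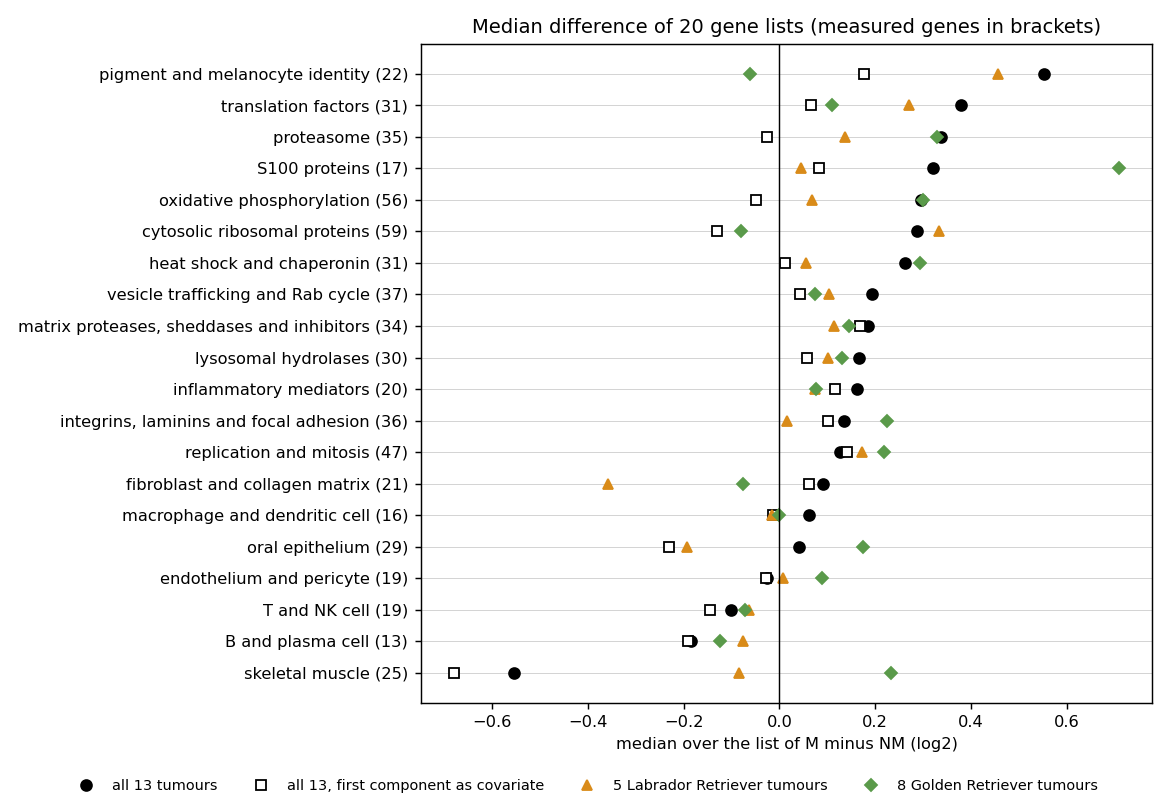
Median M minus NM difference on the log2 scale (horizontal axis) of 20 gene lists in all 13 tumours (black circles), in the same tumours with the first principal component as covariate (open squares), in Labrador Retrievers alone (orange triangles) and in Golden Retrievers (green diamonds). The proteasome, oxidative phosphorylation and ribosomal protein medians move from above 0 to below 0 with the covariate, and that of replication and mitosis goes from 0.127 to 0.141.

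Lysosomal enzymes, proteases and adhesion genes were mostly a little higher in M OMMs, with few single genes at a small p. Lysosomal hydrolases were higher in 23 of 30 (median 0.167), with 4 genes at an unadjusted p under 0.05, all higher, namely ASAH1, GUSB and the cathepsins CTSH and CTSB. That is 13.3% of the list, beside 7.95% of all genes with 1 symbol. With the first principal component as covariate 18 of 30 were higher (median 0.0582). With replicate number as a block 17 of 30 were higher (median 0.0505). CTSH, an aminopeptidase, was 2.27, 2.46, 2.91, 3.05 and 3.23 in NM OMMs and 3.03 to 5.28 in M OMMs (median 3.85), a difference of 1.06 (SE 0.34). CTSB, which also digests matrix outside the cell, was 2.09 to 2.65 in NM and 2.16 to 4.56 in M OMMs, with the highest values in the Bullmastiff and the Border Collie (4.56 and 4.31). The protease list was higher in 26 of 34 (median 0.185), with CTSB, ADAM10 and FURIN at that p, which is 8.82% of the list beside 7.95% of all genes with 1 symbol. FURIN, which activates many proenzymes by cleavage, was higher by 0.33 (SE 0.12). CTSK, the collagen-degrading cathepsin known from osteoclasts, was among the brighter genes and higher by 1.07 (SE 0.45). It was 4.99, 6.34, 6.40, 6.81 and 6.96 in NM and 6.36 to 8.49 in M OMMs. Of 13 bone and osteoclast genes, CTSK among them, 4 were higher and 9 lower (median -0.0819). At an unadjusted p under 0.05, 1 of these was higher and 2 were lower (23.1% beside 7.95%).

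Of 36 genes of integrins, laminins and focal adhesion 26 were higher (median 0.135), with 4 at an unadjusted p under 0.05, all higher (11.1% beside 7.95%). ITGB1, the common beta chain of matrix-binding integrins, was 2.10 to 2.42 in NM OMMs and 2.14 to 3.99 in M OMMs (difference 0.71, SE 0.30). It was above 3 in the Bullmastiff, the Cocker Spaniel and both Dachshunds and 2.14 to 2.64 in the other M OMMs. LAMC1, a laminin chain of basement membranes, was higher by 0.68 (SE 0.23) and ACTN1, which crosslinks actin at adhesions, by 0.45 (SE 0.19). S100A11, a calcium-binding protein of the cell cortex, was higher by 0.73 (SE 0.34), and 13 of 17 S100 genes were higher (median 0.32). Without the Bullmastiff 10 of 17 were higher (median 0.109), and with the first principal component as covariate 9 of 17 (median 0.0827). Vesicle and Rab genes were higher in 27 of 37 (median 0.194, 5 higher and 1 lower at that p, 16.2% beside 7.95%), with VPS29, a retromer subunit, higher by 0.93 (SE 0.34) and MON1A, an activator of late endosomal Rab proteins, lower by 0.31 (SE 0.11). The median of the vesicle list was 0.042 with the first principal component as covariate and 0.0211 with replicate number as a block.

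CXCL8, the neutrophil-attracting chemokine interleukin 8, had the largest difference of all genes named here. It was 2.06, 2.53, 4.01, 4.29 and 4.85 in NM OMMs and 2.73, 4.29, 5.79, 5.95, 6.57, 7.43, 8.36 and 9.0 in M OMMs, and the difference of 2.72 (SE 0.94, unadjusted p = 0.012, adjusted p = 0.619) is 6.59-fold. The groups overlapped through 1 Labrador Retriever (2.73) and the Bullmastiff (4.29), while 6 of the 8 M OMMs lay above every NM OMM. CCL2, which draws monocytes, was higher by 1.65 (SE 0.63), with 1.80, 2.92, 2.95, 3.91 and 4.20 in NM and 3.15 to 7.14 in M OMMs. A Dachshund M OMM was highest for both, at 9.0 and 7.14. Of 20 inflammatory mediators, CXCL8 among them, 14 were higher (median 0.162), with CXCL8 higher and TNF lower at an unadjusted p under 0.05. Of 25 genes of the CXCL12 axis and chemokines, however, 9 were higher and 16 lower (median -0.0317), with 2 at that p, both higher. The shares at that p were 10% of the inflammatory list and 8% of the chemokine list, beside 7.95% of all genes with 1 symbol.

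Pigment cell genes had the highest median of the 43 lists. Of 22 genes 20 were higher in M OMMs (median 0.553), but only 1 (LYST, by 0.69, SE 0.32) reached an unadjusted p under 0.05, which is 4.55% beside the 7.95% over all genes. The median was 0.359 without the Bullmastiff, 0.176 with the first principal component as covariate and 0.141 with replicate number as a block. The list's level in a tumour was 1.72, 1.72, 1.75, 1.78 and 2.49 in NM OMMs, the highest being the Great Dane, and 1.75 to 3.46 in M OMMs. In 4 M OMMs, 1 Labrador Retriever, the Bullmastiff, the Border Collie and the Cocker Spaniel, it was above every NM OMM, and in the other 4 it was between 1.75 and 2.02. RAB27A, which tethers pigment granules, was highest in the same Labrador Retriever (6.40, next 3.68) and its difference was 1.27 (SE 0.64, unadjusted p = 0.0657). MITF, the master regulator of the melanocyte lineage, differed by 0.67 (SE 0.50, unadjusted p = 0.205), and by -0.02 with the first principal component as covariate.

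Among genes lower in M OMMs CRB2 had the smallest p of all genes with 1 symbol. CRB2, a Crumbs protein of the apical membrane that keeps epithelial cells polarised, was 1.70 to 2.25 in M OMMs (median 1.95) and 2.42, 2.46, 2.47, 2.59 and 2.61 in NM OMMs. The groups did not overlap, and the difference was -0.55 (SE 0.09, unadjusted p = 3.94e-05, adjusted p = 0.293). ARHGAP25, a Rac-inactivating protein of leucocytes, was 2.06 to 2.38 in M OMMs (median 2.19) and 2.44, 2.54, 2.63, 2.64 and 2.73 in NM OMMs, again without overlap. SLC25A45, a mitochondrial carrier, and TAS2R41, a bitter taste receptor, were likewise lower in every M OMM, by 0.45 (SE 0.11) and 0.33 (SE 0.09). All 4 differences were of less than 1 on the log2 scale at signals under 3.

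HPN, the membrane serine protease hepsin, was lower by 0.50 (SE 0.12), HOXA4, a homeobox gene, by 0.87 (SE 0.23) and NAT14, an acetyltransferase-like protein, by 0.74 (SE 0.19). HOXA4 was 3.22, 3.55, 3.59, 3.92 and 4.39 in NM OMMs and 2.15 to 3.62 in M OMMs, where the 3 Labrador Retrievers held the highest values. SOX9, which acts in neural crest and cartilage cells, was lower by 0.50 (SE 0.14), with 1.87, 2.09, 2.24, 2.39 and 2.47 in NM and 1.46 to 2.12 in M OMMs. CRNN and OCLN, a cornified envelope protein and a tight junction protein, were lower by 0.35 (SE 0.09) and 0.32 (SE 0.09), although the oral epithelium list to which they belong was higher in 17 of 29 genes (median 0.0401).

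Genes of T, NK and B cells were mostly lower in M OMMs, at signals close to the floor of the array. EBF1, a transcription factor that commits cells to the B lineage, was 2.06, 2.30, 2.47, 2.50 and 2.71 in NM OMMs. It was 1.52 to 2.23 in M OMMs (median 1.69), a difference of -0.65 (SE 0.13, limma unadjusted p = 0.000282). This Transcript cluster was picked for its small p, and the EBF1 Transcript cluster with the highest variance differed by -0.25. Of 13 B and plasma cell genes 11 were lower (median -0.184), with CD79A, a chain of the B cell receptor, lower by 0.27 (SE 0.12). Of 19 T and NK cell genes 14 were lower (median -0.102), with 2 at an unadjusted p under 0.05 (10.5%, beside 7.95% of all genes with 1 symbol). Both CD8A, the co-receptor of cytotoxic T cells, and NKG7, a cytotoxic granule protein, were lower, by 0.36 (SE 0.10) and 0.39 (SE 0.14). CD8A was 1.96, 2.05, 2.10, 2.11 and 2.48 in NM OMMs and 1.59 to 2.04 in M OMMs. TNFRSF4, the co-stimulatory receptor OX40, was 2.94, 3.0, 3.08, 3.16 and 3.17 in NM and 2.48 to 2.99 in M OMMs, a difference of -0.39 (SE 0.10).

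The T and NK level was 1.39 to 1.66 in M OMMs and 1.48, 1.49, 1.69, 1.80 and 1.96 in NM OMMs, and the B and plasma cell level 1.59 to 1.91 against 1.71, 1.76, 1.96, 2.05 and 2.45. Both were highest in the Irish Terrier, without which their medians were -0.0377 and -0.0913. That tumour was also highest for CD209, a lectin of dendritic cells and macrophages, at 5.56 against 2.83, 2.93, 3.25 and 3.61 in the other NM OMMs and 2.42 to 2.94 in M OMMs. The CD209 difference was -0.98 (SE 0.36), and -0.50 without the Irish Terrier. MARCO and CD163, scavenger receptors of macrophages, were lower by 0.47 (SE 0.16) and 0.22 (SE 0.10), while 11 of the 16 macrophage and dendritic cell genes were higher (median 0.0614).

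Muscle genes were lower in M OMMs mostly through 1 NM OMM. All 25 measured skeletal muscle genes were lower in M OMMs (median -0.553), 5 of them at an unadjusted p under 0.05 (20%, beside 7.95% of all genes with 1 symbol). The level of the list was 4.12 in the Great Dane and 1.55, 1.56, 1.58 and 1.69 in the other NM OMMs, against 1.29 to 1.66 in M OMMs. CKM, the muscle creatine kinase, was 7.71 in the Great Dane, 3.05 to 4.12 in the other NM OMMs and 1.98 to 3.53 in M OMMs, and TNNC2, a fast muscle troponin, was 3.66 there and at most 1.94 elsewhere. Without the Great Dane the median difference was -0.119, with 4 of 25 genes higher, and CKM differed by -0.66 in place of -1.51. CAV3, the caveolin of muscle membranes, differed by -0.25 in place of -0.48. TNNT1, the slow muscle troponin T, did not overlap between the groups (1.49 to 1.96 in M and 1.97, 2.04, 2.19, 2.21 and 2.96 in NM OMMs), and differed by -0.46 with and -0.29 without the Great Dane. The part of muscle tissue in the other differences was not tested.

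Fibroblast genes differed in opposite directions in Labrador Retrievers and the other breeds, a contrast that was not tested. Of 21 fibroblast and collagen genes 15 were higher in M OMMs (median 0.0901) with none at an unadjusted p under 0.05. The median was -0.358 among Labrador Retrievers and 0.775 among the other breeds, and over all 13 tumours it was -0.0663 without the Irish Terrier, -8.27e-05 without Dachshund replicate 1, 0.179 without the Bullmastiff, 0.161 without Labrador Retriever M replicate 5 and 0.501 without Labrador Retriever NM replicate 5. Endothelial and pericyte genes were at a median of -0.0269, 9 of 19 higher, and 2 reached that p (10.5%, beside 7.95% of all genes with 1 symbol). EGFL7, a factor secreted by endothelium, was lower by 0.46 (SE 0.16) and NOTCH3, a receptor of mural cells, by 0.27 (SE 0.11).

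**Figure D4:**
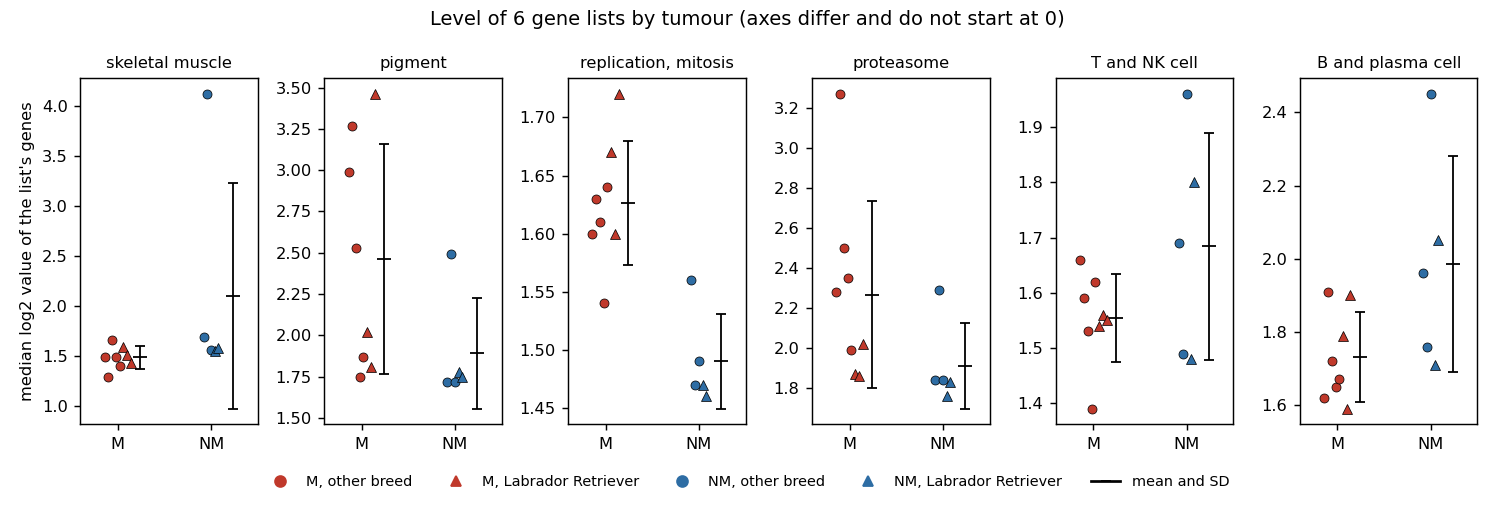
Median log2 value of 6 gene lists in each tumour, with M OMMs in red, NM OMMs in blue, Labrador Retrievers as triangles, and the mean and SD of each group as bars. The Great Dane stands alone at 4.12 on the muscle panel, and all NM OMMs but 1 lie below all M OMMs on the replication panel.

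Most of the 29 genes taken from the study's text were chosen there on all 28 tumours, these 13 among them, so that their direction here is not independent evidence, while ACKR3, NR1H2 and FANCD2 are only mentioned there. Of the 29, all measured, 13 were higher and 16 lower in M OMMs, between -0.92 and 0.67, and 10 (34.5%) reached an unadjusted p under 0.05 beside 7.97% of all Transcript clusters. None passed adjustment (smallest adjusted p = 0.619). The study classified tumours by RPL29, CXCL12 and APOBEC3A as measured by quantitative PCR, whereas the values here are array signals. RPL29 differed by -0.14 (two-sided exact permutation p = 0.5). APOBEC3Z1, read here for APOBEC3A, differed by -0.0089 (two-sided exact permutation p = 0.94). APOBEC3Z1 was 1.58 to 2.34 in M OMMs and 1.70 to 2.32 in NM OMMs. The study's APOBEC3A Transcript cluster carried no gene annotation and was far higher in M OMMs over all its tumours. Whether it is the same one was not tested, so the APOBEC3Z1 value cannot be read as a measure of the study's result. RBM3, which binds RNA and is induced by cold, was 3.04, 3.35, 3.71, 4.13 and 5.25 in NM OMMs and 2.33 to 3.83 in M OMMs, a difference of -0.92 (two-sided exact permutation p = 0.0373) that was -0.58 without the Labrador Retriever NM OMM at 5.25. ADAM10, a sheddase of adhesion molecules, was 2.35, 2.95, 3.05, 3.06 and 3.14 in NM OMMs and 2.62 to 4.20 in M OMMs, a difference of 0.67 (two-sided exact permutation p = 0.0404). In 6 M OMMs ADAM10 was 3.70 or more, above every NM OMM, and in 2 Labrador Retrievers it was 2.62 and 2.78. The study's quantitative PCR, over more tumours than these 13, found a significant difference for CXCL12 but none for RPL29, RBM3 or ADAM10.

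CXCL12, the chemokine that draws cells bearing CXCR4, was 1.90, 2.55, 2.94, 3.12 and 4.37 in NM OMMs. In M OMMs 7 of 8 values lay between 1.58 and 2.07, and the Cocker Spaniel had 4.61. The difference was -0.81 (SE 0.50, two-sided exact permutation p = 0.183), -1.16 without the Cocker Spaniel and -0.46 without the Great Dane. MTFR1, a mitochondrial fission regulator, was higher by 0.47 and NR1H3, the liver X receptor alpha that switches on cholesterol efflux, lower by 0.29 (two-sided exact permutation p = 0.00466 for each). APOE, which carries cholesterol out of cells, was higher by 0.57 (two-sided exact permutation p = 0.028), TOP3A, a topoisomerase of recombination repair, by 0.23 (exact permutation p = 0.014), and PPP1R37, an inhibitor of protein phosphatase 1, was lower by 0.24 (exact permutation p = 0.0109).

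Labrador Retrievers allow the outcomes to be set side by side within a breed, with 3 M and 2 NM OMMs and no test. CANX was 4.70, 4.70 and 5.58 in M against 4.08 and 4.01 in NM, CRB2 1.97, 1.88 and 2.25 against 2.42 and 2.46, and EBF1 1.72, 1.79 and 1.65 against 2.50 and 2.06. These 3 genes were named for a small p over the 13 tumours, the Labrador Retrievers among them, so that their gaps here are no independent evidence. For CANX and CRB2 the gap within the breed follows from that over all 13 tumours, while EBF1 overlapped over the 13. How many of all Transcript clusters separate within the breed was not counted. TYMS was 3.03, 2.54 and 5.33 against 1.88 and 1.44, a difference of 1.97, and CXCL8 2.73, 8.36 and 7.43 against 2.53 and 4.29, a difference of 2.76. By contrast the difference of ADAM10 was 0.13 in Labrador Retrievers and 1.01 in the other breeds, and that of CKM -0.13 and -2.40. Replication genes were higher in 42 of 47 (median 0.172) and pigment genes in 16 of 22 (median 0.456), while muscle genes were higher in 9 of 25 (median -0.0837).

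Golden Retrievers, with 4 M and 4 NM OMMs and no tumour in common with these 13, gave the same sign of difference for 57.5% of all Transcript clusters (r of 0.182 across Transcript clusters, which are not independent). Of the 842 that were higher at an unadjusted p under 0.05 here, 68.1% were above 0 in Golden Retrievers, where 45.5% of all were, and of the 1739 that were lower 66.5% were below 0, where 54.5% of all were. The test of the difference between the breed groups called no Transcript cluster (limma interaction, smallest adjusted p = 1, 0% called), and 1054 (3.25%) were at an unadjusted p under 0.05, 468 of them above 0 (1.44%) and 586 below 0 (1.81%). Replication genes were higher in 39 of 47 in Golden Retrievers (median 0.219) and proteasome genes in 27 of 35 (median 0.329), but without Golden Retriever M replicate 10 these medians were 0.00184 and 0.0628. Muscle genes were higher in 22 of 25 (median 0.232) and pigment genes in 8 of 22 (median -0.0617), each on the other side of 0 from the medians above. Both depended on single Golden Retrievers. CKM was 6.24 in M replicate 15 against 2.25, 2.26 and 2.89 in the other M and 1.82 to 2.90 in the NM OMMs, and without that tumour the muscle median was -0.0108. The pigment median ran from -0.391 to 0.255 with each Golden Retriever left out in turn.

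Some of the genes that led here were near 0 or turned in Golden Retrievers. FNDC3B differed by 0.67 here and -0.30 there (difference of differences 0.97, SE 0.21, unadjusted p = 0.000182), ZFR by 0.63 and -0.19 (0.82, SE 0.24) and SECISBP2L by 2.40 and -0.92 (3.32, SE 1.15). EBF1 differed by -0.65 and 0.21 (-0.87, SE 0.21, unadjusted p = 0.000668), CD8A by -0.36 and 0.25 (-0.61, SE 0.16), and CELF2, a splicing regulator abundant in leucocytes, by -0.26 and 0.23 (-0.49, SE 0.14). None of these passed adjustment, and all but SECISBP2L were named for the small p of this very contrast. Without the single Golden Retriever that moved each most, the Golden Retriever difference was -0.04 for SECISBP2L, -0.04 for ZFR, 0.08 for EBF1 and 0.14 for CELF2. CRB2 and ARHGAP25, which led on the side lower in M, differed by -0.015 and 0.025 in Golden Retrievers. CANX, ASAH1 and CKAP2L differed there by 0.29, 0.22 and 0.36, each below 0 without M replicate 10. Differences of the same sign in both breed groups, kept with each Golden Retriever left out, were seen among others for CDK4 (0.84 and 0.92, the latter 0.25 without M replicate 15, at 6.21), HNRNPH2 (0.77 and 1.21), CRNN (-0.35 and -0.31) and OCLN (-0.32 and -0.33). They were also seen for ADAM10 (0.67 and 1.005) and APOE (0.57 and 1.08), which the study chose on tumours that include the Golden Retrievers. TPX2 differed by 0.29 and 0.55, the latter -0.04 without M replicate 10, at 4.14.

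**Figure D5:**
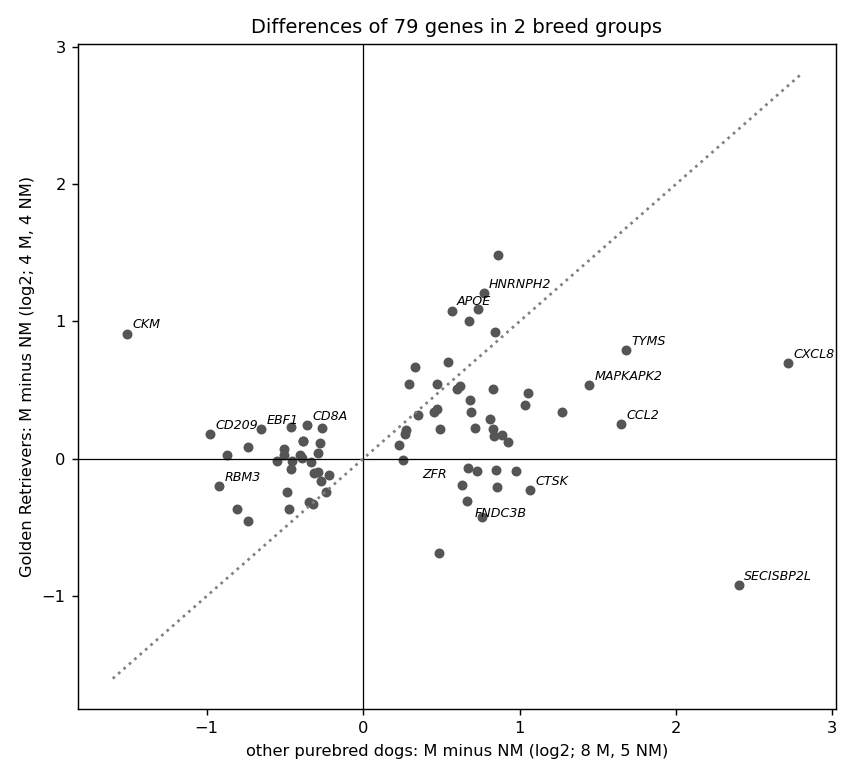
M minus NM difference on the log2 scale of 79 genes named here, in the other purebred dogs (horizontal axis) and in Golden Retrievers (vertical axis), with a dotted line where both are equal. The genes were chosen mostly for their p in the other purebred dogs, and SECISBP2L (2.40 and -0.92) and CKM (-1.51 and 0.91) lie farthest from the line on the sides where the signs differ. Each of these Golden Retriever values rests on 1 tumour, without which they were -0.04 and -0.03.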

How the data were processed

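Samples were grouped by their labels of outcome and breed. The authors excluded outlying arrays and, in Affymetrix Expression Console 1.3, quantile normalised, log2-transformed and summarised the signals (RMA); the deposited log2 values were used as they stand, without the study's detection filter. Arrays hold no counts, and the number of tumours limits the precision. The outcomes were compared by limma (version 3.58.1, R version 4.3.3) over all 32391 Transcript clusters, without covariates, with Benjamini-Hochberg adjustment at 0.05. The difference from Golden Retrievers was an interaction term over 21 tumours. Single values were compared by exact permutation. Symbols came from the array annotation (16878 Transcript clusters with 1, 289 with several, 15224 with none), and a gene was read where its mean over 28 tumours was highest. Named genes were the 12 smallest p per direction with a mean above the median, 8 per direction with a mean of 3 or more, 6 per direction by interaction, 29 from the study's text, up to 4 per list and 9 markers. The 43 lists were described by counts and medians. Tumours and lists were chosen with earlier results of these data known. Alternatives covered the test, normalisation, filters, breed, replicate number, first component and each tumour left out, and each fit was tested on simulated data. No source says that equal replicate numbers mark related dogs.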

Additional observations from a re-analysis of the deposited data

Results flagged for a closer look

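In each group the highest or lowest tumour was set against the range of its group (Dixon's criterion), over 202 groups of values of 79 genes, 20 list levels and 2 array measures. It stood apart in 25 of them, where chance gives about 1 in 20, and genes of a list are not independent.

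The Great Dane was the highest NM OMM for CKM (7.71), TNNC2 (3.66), TNNT1 (2.96) and the muscle list (4.12). It was also the highest for MLANA (2.69), the pigment list (2.49), PSME4 (2.41) and the proteasome list (2.29), and the lowest for CD79A (1.75). The Bouvier des Flandres was the lowest NM OMM for ADAM10 (2.35) and CTSB (2.09) and the highest for CD8A (2.48). The Irish Terrier was the highest for CD209 (5.56). A Labrador Retriever NM OMM was the lowest for ASAH1 (1.68) and the highest for FURIN (2.77).

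Among M OMMs the Bullmastiff was the highest for the levels of ribosomal proteins (6.65), oxidative phosphorylation (3.95), the proteasome (3.27) and heat shock genes (2.67), and the lowest for SLC25A45 (1.12). The Cocker Spaniel was the highest for CXCL12 (4.61) and TPX2 (2.14), and a Labrador Retriever for RAB27A (6.40). The Dachshunds were the highest for the inflammatory list (2.40) and the endothelial list (2.30), 1 tumour each. No gene's difference between M and NM OMMs was unlike that of Golden Retrievers after adjustment (limma interaction).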

How the results depend on the processing

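The count of 0 Transcript clusters after adjustment held under every alternative except leaving out 1 tumour, where it ran from 0 to 4 (2 without the Great Dane, 4 without the Irish Terrier, none of them with a gene symbol). The count at an unadjusted p under 0.05 ran from 1843 to 3508 over the same omissions. It was 770 with means of 2 or more only (8217 tested), 1424 with 1 gene symbol only (16878 tested), and 1495 with the first principal component as covariate. For the difference from Golden Retrievers these counts ran from 0 to 1 and from 874 to 1486 with 1 tumour left out, and were 206, 514 and, with 1 mean per breed and status, 272. The first component differed between M and NM OMMs at an exact p of 0.0444 without the Great Dane (difference 50.6) and 0.0429 without a Labrador Retriever M OMM (48.9), within 31.4 to 50.6 over the omissions of 1 tumour, and the difference was 62.2 (exact p of 0.0714) without the Labrador Retriever tumours. Of 79 genes, 78 kept their direction in all 26 alternatives, and none passed adjustment in any (smallest adjusted p 0.0794, CRB2). The exception was MITF, at -0.24 with replicate number as a block and -0.02 with the first component. The replicate block, whose difference rests only on the 3 numbers found in both groups, gave 1421 Transcript clusters at an unadjusted p under 0.05. After adjustment it gave 0. Deviations of the 3 pairs with equal numbers correlated at 0.137, 0.0628 and -0.0771. Pairs with unequal numbers were not set beside them, so these values cannot show whether the numbers pair the dogs. Of the gene list medians under these alternatives 1149 moved by less than the spread between tumours and 12 by more. A shift smaller than that spread can still carry a median across 0, so the 1149 do not show that directions held. The percentage of Transcript clusters above 4 has no value after quantile normalisation, which makes it equal on all arrays. Leaving out each Golden Retriever in turn was added after seeing the data. Low signal limits what could be seen, since most Transcript clusters lie near the array's floor.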
